A study of Mus musculus with 2 samples.

Results

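Within the foot shock library of a mouse habenula single-cell study, 380 of 4840 called cells (7.85%, exact 95% interval 7.11 to 8.65) carried keratin and claudin transcripts of epithelia and almost no neuronal transcripts. In the control library 0 of 5129 called cells met the same rule, which allows a share of up to 0.0585% at a floor of 3 cells (exact 95% upper bound 0.0719%). Members were chosen by their own counts. A member had at least 1000 UMIs (unique molecular identifiers, 1 per captured transcript), 500 to 6000 detected genes and at most 20% mitochondrial UMIs. It also had at least 5 UMIs summed over Epcam, Krt8, Krt18, Krt14, Cldn3 and Cldn7, and less than 0.5% of its UMIs from Snap25, Syt1 and Meg3. Cells with more UMIs of Cldn3, Cldn7 and Krt8 than of Krt14, Wnt6 and Igfbp2 were called luminal-like (287 cells, 75.5% of the 380), and cells with the reverse basal-like (69 cells, 18.2%). The other 24 cells had equal sums, 4 of them 0 for both, and entered neither class.

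The study profiled the habenula, a small epithalamic structure, of adult male C57BL/6 mice aged P50 to P55, with 1 pooled library of 4 mice for each of its 2 groups. Mice of both groups were handled for 5 min a day over 7 days. The foot shock mice were also habituated to the shock chamber for 10 min a day over 7 days and then received 30 shocks of 0.3 mA and 1 s within 60 min, while control mice came from the home cage. Tissue punches of 0.75 mm were pooled, digested with pronase in the presence of activity and transcription inhibitors and depleted of dead cells, and captured with droplet 3' version 2 chemistry. With 1 library a group, the shock, the pool of mice and the library cannot be told apart, so no test between groups was made.

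Glandular epithelia are commonly built as a bilayer. Luminal cells face the lumen, seal it with claudin tight junctions, rest on simple keratins such as Krt8 and Krt18, and secrete whey acidic and antimicrobial proteins. Basal cells sit on the basement membrane, express Krt5, Krt14 and the transcription factor Trp63, and in several glands take up a contractile, myoepithelial form.

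The promoters of 3 genes from the comparison below are shown to illustrate a motif count given there: Wfdc18, a secreted whey acidic protein family member that was more abundant in luminal-like cells, and Bnip3 and Ddit4, which were more abundant in basal-like cells. They were picked after the values and matches had been seen, and are not the genes with the largest differences. Each sequence runs 5′ to 3′ on the gene's strand and covers 180 bases, from 250 to 71 bases before the RefSeq start (RefSeq, GRCm38.p6). Capitals mark ACGTG or its reverse complement, searched on both strands.
Wfdc18, chr11:83708754-83708933, plus strand: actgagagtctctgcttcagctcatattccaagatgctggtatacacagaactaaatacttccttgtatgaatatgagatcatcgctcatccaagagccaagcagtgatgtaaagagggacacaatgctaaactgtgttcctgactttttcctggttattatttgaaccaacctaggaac
Bnip3, chr7:138909577-138909756, minus strand: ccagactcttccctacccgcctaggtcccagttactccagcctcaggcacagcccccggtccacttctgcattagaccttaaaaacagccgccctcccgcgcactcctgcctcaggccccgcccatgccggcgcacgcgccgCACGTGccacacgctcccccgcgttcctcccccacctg
Ddit4, chr10:59951841-59952020, minus strand: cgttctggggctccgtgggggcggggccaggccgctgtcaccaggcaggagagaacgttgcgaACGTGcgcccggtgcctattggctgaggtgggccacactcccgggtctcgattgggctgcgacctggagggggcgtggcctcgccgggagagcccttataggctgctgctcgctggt
The Bnip3 stretch holds 2 overlapping matches, which together spell the palindrome in capitals. The Ddit4 stretch holds 1 match and the Wfdc18 stretch none.

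The sums that assigned the cells spread unevenly. In luminal-like cells the luminal sum ran from 1 through a median of 6 to 53 UMIs per cell, and the basal sum from 0 through a median of 0 to 25. In basal-like cells the luminal sum ran from 0 through a median of 2 to 14 UMIs, and the basal sum from 1 through a median of 9 to 26. Of the luminal-like cells 213 had no UMI of the basal sum, whereas only 6 basal-like cells had no UMI of the luminal sum. One sum was at least 3 times the other in 306 of the 356 classed cells, and 27 cells were assigned by a difference of 1 UMI (21 luminal-like and 6 basal-like). Igfbp2, an insulin-like growth factor binding protein, supplied 600 of the 732 UMIs of the basal sum in basal-like cells, and 20 of the 69 basal-like cells had no UMI of either Krt14 or Wnt6.

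**Figure D1:**
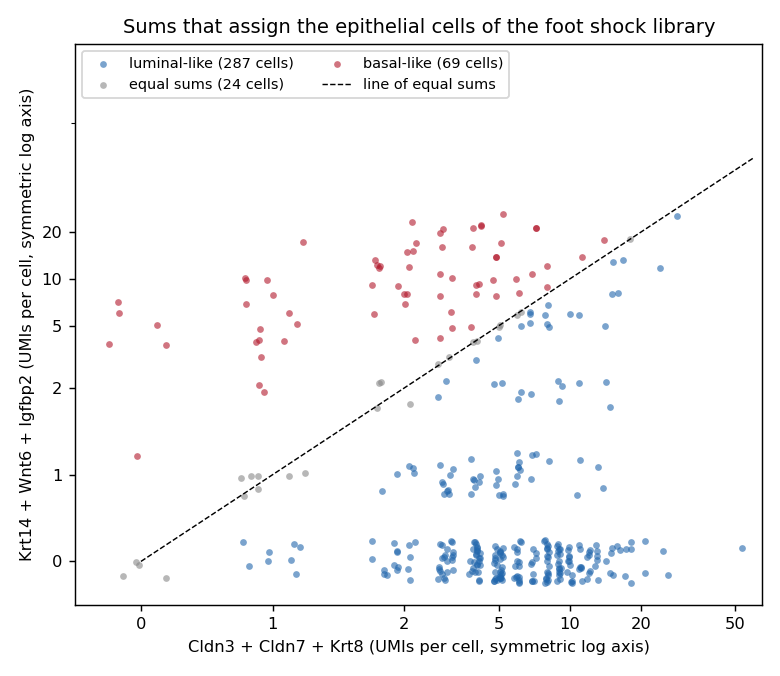
Each point is 1 of the 380 epithelial cells, placed by its UMIs of Cldn3, Cldn7 and Krt8 (horizontal) and of Krt14, Wnt6 and Igfbp2 (vertical), on symmetric log axes with a small seeded jitter. The 213 luminal-like cells without a basal-sum UMI form the band at the bottom, while most of the 69 basal-like cells lie above the dashed line of equal sums with some luminal-sum UMIs.

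At the edge of the rule, 25 cells had an epithelial sum of 4 UMIs, just outside, and 22 had 5, just inside. Among the 127 called cells with a sum of 1 to 4 and few neuronal UMIs, the basal sum was the larger in 86, the luminal sum in 19, and the sums were equal in 22. Cldn3, Cldn7 and Krt8 count toward the epithelial sum, so that limit caps the luminal sum of these cells but not their Igfbp2 or Wnt6, and the split follows in part from it. Pooled, they held 857 CPM (UMIs scaled to a common total, 1e6, of the pooled cells) of Igfbp2, 874 CPM of Lgals7 and 370 CPM of Cdkn1c, against 175 CPM of Krt8. The basal-like share of the classed cells was 27% with a minimum of 3 UMIs and 11.4% with a minimum of 10, against 19.4% at 5. The neuronal limit left out 4 further cells.

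Depth was similar between the classes. Luminal-like cells held 683732 UMIs in all with a median of 2202 UMIs and 850 genes per cell, and basal-like cells held 186713 UMIs with a median of 2366 UMIs and 891 genes. The 4460 other called cells of the library had a median of 2806.5 UMIs and 1403 genes. The median mitochondrial share was 2.74% in luminal-like, 1.60% in basal-like and 5.16% in other cells. The whole libraries held 23095501 (control) and 22189951 (foot shock) UMIs, and 36 barcodes were called as cells in both. Only 1 member barcode was also called in control, and no member barcode held a control UMI of the 6 epithelial genes. Scrublet called 69 of the 4840 foot shock cells doublets (1.43%) and 0 of the 380 epithelial cells.

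Krt18, a simple-epithelial keratin, stood at 328 times its level in the other called cells and Krt8, its partner, at 275 times, which the choice of members on these genes fixes. Of the markers named for these cells, only Wfdc18 was not used by the rule, and it stood at 170 times. Among genes with at least 1000 UMIs in epithelial cells, the calcium-binding protein gene S100a6 (58.1 times) and Mgst1, a microsomal glutathione transferase (51.3 times), came next. They were followed by Snrpe (27.9 times), Gm8730 (24.5 times), Ifitm3 (24.3 times), Phlda1 (23.4 times) and Rps10 (11.9 times). Snrpe, Gm8730 and Rps10 have near-identical copies in the genome, so their counts are uncertain. Free RNA, measured as the summed barcodes of 10 to 100 UMIs, held 27.5 CPM of the 6 epithelial genes in foot shock and 57.1 CPM in control. Of 288 control UMIs of these genes, 206 lay in such barcodes, 59 in barcodes under 10 UMIs and 10 in called cells, with 1 each.

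Y-linked transcripts set these cells apart from the rest of a library labelled male. Summed over 4 Y-linked genes, epithelial cells had 0 UMIs (a level of up to 3.22 CPM), whereas the other called cells of the same library had 236 CPM and control cells 283 CPM. Xist, expressed from the inactive X chromosome, had 4 UMIs (4.29 CPM) in epithelial cells, against 9.0 CPM in the other cells, 0.278 CPM in the neurons among them and 0.119 CPM in control cells.

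The basal-like label was borne out only in part. Krt14 and Wnt6 chose the class and say nothing for its name. Of the basal markers outside the rule, Krt5 was higher in basal-like cells, as was Trp63 at few UMIs. So were 3 of the 8 measured hemidesmosome and basement membrane genes, Col4a1, Col4a2 and Itga6. The rest of the 8 differed by less than 2-fold, among them Itgb4, which did not differ beyond counting error. Krt17, another keratin of basal and stratified epithelia, was near equal between the classes. Of the contractile programme, Acta2, Mylk and Myh11 had no UMI in basal-like cells, and Mylk and Myh11 none in either class. Cnn1, Myl9 and Tpm2 had more UMIs in basal-like cells, all few, while Tpm1 was higher in luminal-like cells. Krt8 and Krt18, at 975 and 1832 CPM in basal-like cells, count toward the epithelial sum, which raises them in the members. Krt14 counts toward the same sum, so a cell could enter without simple keratins. Of the 736 UMIs of that sum in basal-like cells, 342 were of Krt18, 182 of Krt8 and 73 of Krt14. The prevalence of simple keratins thus also limits the name. The names luminal-like and basal-like are therefore kept as names of the rule's classes. All ratios below compare levels in CPM of the summed class, are given as the larger class over the smaller with exact 95% intervals, and carry no p-value, because cells of 1 library are not replicates and the classes were drawn from the same counts. The intervals cover counting error only.

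The genes of the rule itself, given as a description, differed most for claudins on one side and for Wnt6 and Igfbp2 on the other. Cldn3 was at 687 CPM in luminal-like and 32.1 CPM in basal-like cells, and Cldn7 at 364 and 118 CPM. Krt8 stood at 1966 and 975 CPM, Krt18 at 3506 and 1832 CPM, and Epcam, an epithelial adhesion molecule, at 954 and 594 CPM. In the other direction Igfbp2 stood at 243 CPM in luminal-like and 3213 CPM in basal-like cells, Krt14 at 57.0 and 391 CPM, and Wnt6, a secreted Wnt ligand, at 16.1 and 316 CPM. Both keratins of simple epithelia were thus present in both classes, within a factor of about 2.02, though both count toward the epithelial sum that chose the cells.

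With every cell thinned to 1000 UMIs, which left out no cell, a Krt8 UMI was found in 81.1% of luminal-like and 55.6% of basal-like cells (95.8% and 78.3% before thinning). Neurons of the library, which should lack these genes (2942 cells, median 3539.5 UMIs), had a thinned Krt8 share of 0.0859%. A Krt14 UMI was found in 4.03% of luminal-like and 27.9% of basal-like cells after thinning (6.97% and 46.4% before). Igfbp2 was found in 12.4% and 83.3% (20.2% and 94.2% before thinning). The Krt14 share in basal-like cells was therefore far below their Igfbp2 share. Trp63, the transcription factor of basal epithelial cells, had 11 UMIs in basal-like and 2 in luminal-like cells and a thinned share of 6.05% and 0.248%.

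**Figure D2:**
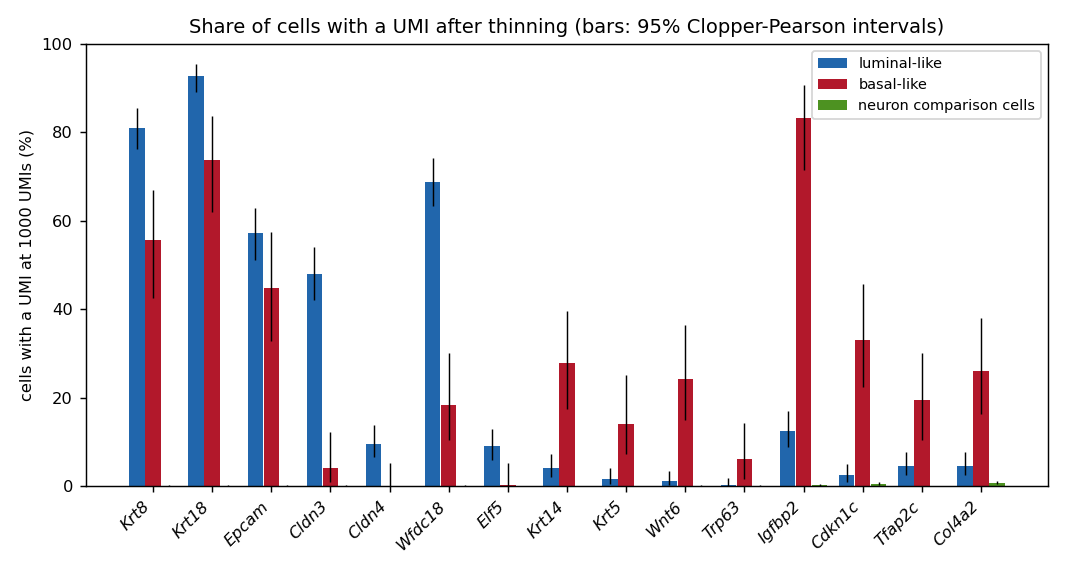
Bars give the share of cells (percent) with at least 1 UMI after thinning each cell to 1000 UMIs, for 287 luminal-like, 69 basal-like and 2942 neuron comparison cells, with exact 95% Clopper-Pearson intervals. Krt8 (81.1% and 55.6%) and Krt18 are frequent in both epithelial classes, Cldn3 and Wfdc18 in luminal-like cells, and Igfbp2 (83.3%) in basal-like cells, while neurons are near 0.

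Of 4130 genes measured with at least 20 UMIs over both classes and not used by the rule, 543 (13.1%) were at least 2-fold higher in luminal-like cells and 341 (8.26%) at least 2-fold higher in basal-like cells. The ratio's interval excluded equality for 253 of the former and 256 of the latter. The median log2 ratio over all 4130 genes, luminal-like over basal-like with a prior count of 0.5 in each class, was -0.04.

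The 12 genes with the largest luminal-like excess (at least 100 UMIs, not rule genes, above free RNA) included 3 calcium-binding S100 genes of chromosome 3 and 3 whey acidic protein family genes. S100a14 (chr3:90526856-90528837, plus strand) had 350 CPM (interval 307 to 397) in luminal-like cells and 0 UMIs in basal-like cells, at least 21.8-fold higher at a floor of 3 counts over the class. It was found in 132 of 287 luminal-like cells and in 0 of 69 basal-like cells. S100a6 (chr3:90612882-90624181, plus strand) stood at 4898 and 632 CPM, 7.75-fold (6.45 to 9.39), and S100a16 (chr3:90537254-90543151, plus strand) at 152 and 26.8 CPM, 5.68-fold (2.36 to 17.9). Wfdc18 (chr11:83709015-83711348, plus strand) stood at 5353 and 530 CPM, 10.1-fold (8.27 to 12.5). Wfdc2 and Wfdc3, which lie near each other on chromosome 2, were 5.67-fold (3.44 to 10.0) and 6.06-fold (2.52 to 19) higher. A Wfdc18 UMI was found in 68.9% of luminal-like and 18.4% of basal-like cells after thinning.

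The rest of the luminal-like excess joined adhesion, membrane and transcription factor genes. Anxa1, encoding the phospholipid-binding annexin A1, stood at 567 CPM in luminal-like and 16.1 CPM in basal-like cells, 35.3-fold (12 to 172). Barx2, a homeobox transcription factor gene, stood at 183 CPM against 5.36 CPM from 1 UMI, 34.1-fold (6.02 to 1359). Lgals3, encoding the lectin galectin-3, was 24-fold higher (8.13 to 117). Pvrl4, encoding the adhesion molecule nectin-4, was 17.6-fold higher (6.8 to 65.1). Klf6, a zinc-finger transcription factor gene, was 6.96-fold higher (2.64 to 26), and Mlph, which links melanosomes and other organelles to myosin, 5.62-fold (2.66 to 14.2). By cluster, in the grouping described below, the log2 ratios were lower, at 2.23 for S100a14, 2.99 for Anxa1, 1.69 for Lgals3 and 2.56 for Pvrl4. With classes drawn by Krt8 against Krt14 they were 2.67 for Anxa1, 1.40 for Lgals3, 1.89 for Wfdc18 and 2.07 for S100a6. The 12 genes thus kept their direction under both, with smaller differences for the values just given. Pvrl4 and Klf6 had larger differences by Krt8 against Krt14, at log2 ratios of 4.90 and 3.62 against 3.97 and 2.64 by the rule. The wide intervals of Barx2, Lgals3, Anxa1 and Pvrl4 follow from 1 to 4 UMIs in the basal-like class.

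Basal-like cells had the growth inhibitor gene Cdkn1c as their largest excess. Cdkn1c (chr7:143458339-143461050, minus strand), a cyclin-dependent kinase inhibitor, stood at 471 CPM in basal-like and 35.1 CPM in luminal-like cells, 13.4-fold (8.47 to 22.1), and was found in 56.5% and 4.88% of their cells before thinning. H19 (chr7:142575529-142578143, minus strand), a noncoding RNA gene of the same imprinted region of chromosome 7, stood at 1066 and 322 CPM, 3.31-fold (2.72 to 4.03). Both are known as maternally expressed imprinted genes. Lgals7 (chr7:28863853-28866284, plus strand), encoding the stratified-epithelium lectin galectin-7, stood at 1376 and 408 CPM, 3.37-fold (2.84 to 4.01), and Ndufa4l2, encoding a mitochondrial complex-associated protein, at 814 and 244 CPM, 3.33-fold (2.66 to 4.18). Apoe, encoding the lipid carrier apolipoprotein E, was 3.37-fold higher (2.52 to 4.51), with free RNA at 223 CPM, above the 149 CPM of luminal-like cells. All 5 of these genes stayed at least 2-fold higher in basal-like cells when Igfbp2 was taken out of the basal sum, which leaves 21 basal-like cells, with log2 ratios (luminal-like over basal-like) of -2.61 for Cdkn1c, -1.51 for H19, -1.86 for Lgals7, -1.19 for Ndufa4l2 and -1.80 for Apoe. With classes drawn by Krt8 against Krt14 alone, Ndufa4l2 was just under 2-fold.

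The other 7 genes of the basal-like excess were not 2-fold higher once Igfbp2 was taken out of the basal sum. Higd1a, encoding a mitochondrial inner-membrane protein, stood at 1366 CPM in basal-like and 285 CPM in luminal-like cells, 4.79-fold (3.96 to 5.80), but with Igfbp2 out of the basal sum its log2 ratio was 0.39, higher in luminal-like cells. Ero1l, encoding an oxidase of the endoplasmic reticulum, went from 4.76-fold higher in basal-like cells (3.56 to 6.36) to a log2 ratio of 1.38 toward luminal-like cells. Bnip3, encoding a mitophagy receptor, was 3.70-fold higher (2.76 to 4.96) and had a log2 ratio of -0.08 without Igfbp2. Ddit4, encoding an inhibitor of mTORC1, was 3.53-fold higher (2.76 to 4.51) and had -0.14. Fam162a was 4.4-fold higher (3.37 to 5.77), 2610528A11Rik 4.75-fold (3.28 to 6.90) and the immediate early response gene Ier3 3.22-fold (2.27 to 4.55), and all 3 were under 2-fold without Igfbp2, at log2 ratios of -0.68, -0.16 and -0.11. The 21 cells left in that class held few UMIs of these genes, 22 for Higd1a and 5 for Ero1l. Most of the former basal-like cells counted as luminal-like in that split. The luminal-like UMIs rose with them, from 195 to 416 for Higd1a and from 87 to 202 for Ero1l. These ratios therefore do not describe the 287 luminal-like cells of the rule. The clusters described below left out the rule genes but could use these 7, so their difference between clusters is a description and no support. All 7 were at least 2-fold higher in the mainly basal-like cluster, with log2 ratios (cluster 1 over cluster 2) of -2.59 for Higd1a, -3.00 for Ero1l, -2.14 for Bnip3 and -1.96 for Ddit4. In free RNA of the library Higd1a was at 354 CPM and Fam162a at 151 CPM.

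**Figure D3:**
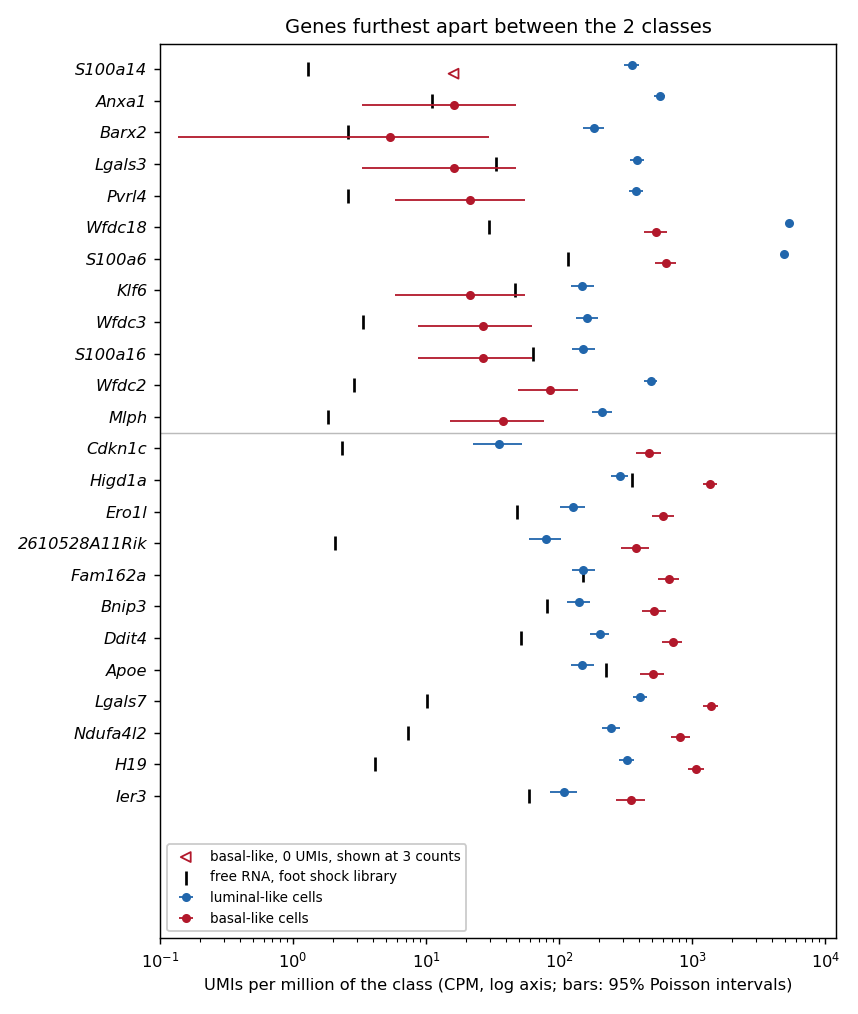
Levels (CPM, log axis) of the 12 genes furthest apart in each direction, in luminal-like (blue) and basal-like (red) cells, with exact 95% Poisson intervals and the level in free RNA as a black tick. S100a14 had 0 UMIs in basal-like cells and is drawn there at 3 counts. Higd1a and Apoe in luminal-like cells lie below their free RNA level, while Cdkn1c, H19 and Lgals7 lie far above theirs in both classes.

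**Figure D4:**
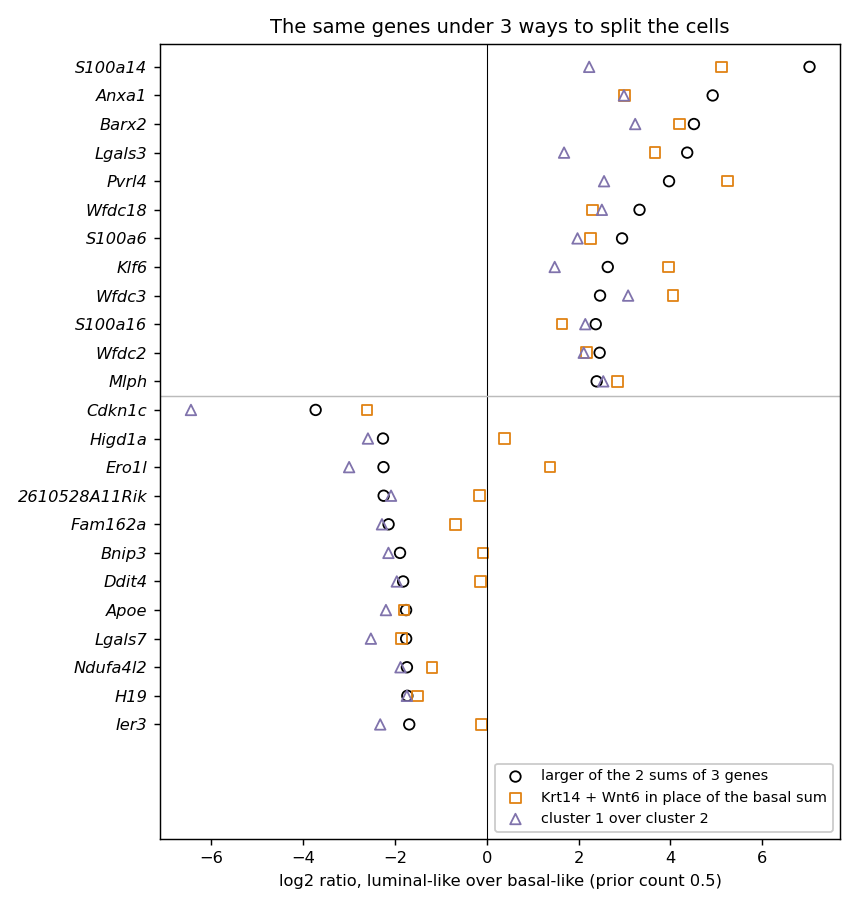
The log2 ratio (luminal-like over basal-like, prior count 0.5) of the same 24 genes under the rule's sums (circles), with Krt14 and Wnt6 alone as the basal sum (squares) and for cluster 1 over cluster 2 (triangles). The 12 upper genes stay to the right of 0 in all 3 splits, while Higd1a (0.39) and Ero1l (1.38) cross 0 when Igfbp2 is left out. Leaving it out counts most former basal-like cells as luminal-like.

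The ACGTG letters shown above are the core of the site bound by hypoxia-inducible factors and part of the CACGTG E-box of other factors, and were searched after the genes had been seen. In the 250 bases before the start, ACGTG on either strand was present in 6 of the 9 basal-high genes and 2 of the 10 luminal-high genes found in the RefSeq promoter table (19 of the 24 named genes). The 6 basal-high genes with a match were Ero1l, 2610528A11Rik, Fam162a, Bnip3, Ddit4 and Ier3. None of them was 2-fold higher in basal-like cells with Igfbp2 out of the basal sum, a split that counts most former basal-like cells as luminal-like. The 3 basal-high genes without a match were Higd1a, Apoe and Lgals7, of which Apoe and Lgals7 stayed 2-fold higher. ACGTG was present in 16.6% of all 27025 promoters and in 23.2% of the 7446 promoters with at least 60% GC. The basal-high promoters had a median GC content of 70.0% against 53.8% for the luminal-high ones. AACNGGTT, the letters bound by grainyhead-like factors, and TGANTCA, those of AP-1, were in 0 promoters of either set, against 1.71% and 6.87% of all promoters. AGGAAG, a core of ETS family sites, was in 2 of 10 and 2 of 9, against 29.2% of all. A match is a description of the letters and not evidence of binding.

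Keratins divided by type. Of 3 measured simple keratins outside the rule, 2 were at least 2-fold higher in luminal-like cells and 0 in basal-like cells, against 13.1% and 8.26% of all measured genes. Their median log2 ratio was 3.89, or 1.5 with a class at 0 UMIs set to 3 counts, against -0.04 over all measured genes. Krt7 stood at 118 CPM against 5.36 CPM from 1 UMI, 22.1-fold (3.86 to 884), and Krt19 at 45.3 CPM against 0 UMIs, at least 2.82-fold higher, while Krt23 stood at 165 and 107 CPM. With the clusters described below in place of the classes, Krt7 and Krt19 were under 2-fold, at log2 ratios of 0.74 and 0.66. Of 3 measured keratins of stratified epithelia outside the rule, 2 were at least 2-fold higher in basal-like cells (median log2 ratio -1.87). Krt5, the usual partner of Krt14, stood at 166 CPM in basal-like and 30.7 CPM in luminal-like cells, 5.41-fold (3.01 to 9.90), and Krt79 was 3.66-fold higher (1.67 to 8.04). Krt17 was at 284 and 279 CPM, but by cluster it was higher in the mainly basal-like one, at a log2 ratio of -1.63. Krt1, Krt4, Krt13 and Krt16 had 0 UMIs in both classes.

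Tight junction genes leaned to the luminal-like class. All 5 measured ones outside the rule were at least 2-fold higher there, against 13.1% of all measured genes. Their median log2 ratio was 1.09 (1.38 with 0 UMIs set to 3 counts), and 2 had intervals that excluded equality. Cldn4, another claudin, stood at 83.4 CPM against 0 UMIs, at least 5.19-fold higher, and Tjp3, a zonula occludens scaffold, at 41.0 against 5.36 CPM, 7.65-fold (1.26 to 313). F11r (27.8 and 10.7 CPM), Tjp1 (54.1 and 26.8 CPM) and Crb3 (43.9 and 21.4 CPM) had intervals that included equality, and with classes drawn by Krt8 against Krt14 the log2 ratios of F11r and Tjp1 were -0.41 and -0.62. Of 9 measured adherens junction and desmosome genes, 3 were at least 2-fold higher in luminal-like cells and 0 in basal-like cells (median log2 ratio 0.25). Over all measured genes these shares were 13.1% and 8.26%. Cdh1, encoding E-cadherin, was 3.82-fold higher (1.22 to 19.3, with a log2 ratio of 0.82 by cluster) and Dsg2, encoding a desmosomal cadherin, 6.83-fold (1.12 to 280). Ctnnd1, encoding p120 catenin, stood at 77.5 and 37.5 CPM with an interval including equality. Perp (165 and 209 CPM) and Dsp (54.1 and 80.3 CPM), both desmosomal, were on the other side by less than 2-fold.

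Basement membrane genes leaned the other way. The 8 measured genes of hemidesmosomes and basement membrane had a median log2 ratio of -0.48. Of these, 0 were at least 2-fold higher in luminal-like cells, against 13.1% of all measured genes, and 3 in basal-like cells, against 8.26%. The type IV collagen genes Col4a1 (220 and 52.7 CPM, 4.17-fold, 2.60 to 6.72) and Col4a2 (289 and 48.3 CPM, 5.99-fold, 3.82 to 9.54) and the laminin receptor subunit gene Itga6 (91.0 and 24.9 CPM, 3.66-fold, 1.76 to 7.63) made up that count. Without Igfbp2 in the basal sum their log2 ratios were -1.57, -2.13 and -2.08. Itgb4, the partner of Itga6 in hemidesmosomes, stood at 58.9 CPM in basal-like and 43.9 CPM in luminal-like cells, which did not differ beyond counting error. With free RNA subtracted as described below, Itgb1 and Lama5 had log2 ratios of 0.45 and 0.08, and Plec and Cd151 of -0.56 and -0.35. Sparc, encoding a collagen-binding matrix protein, was 6.20-fold higher in basal-like cells (3.73 to 10.5).

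The contractile genes of myoepithelium summed to 883 CPM in luminal-like and 541 CPM in basal-like cells, most of it from Tpm1 and Des. Acta2, encoding smooth muscle actin, had 1 UMI in luminal-like and 0 in basal-like cells, and Mylk, Myh11 and Oxtr had 0 in both. Cnn1 had 6 UMIs in basal-like and 0 in luminal-like cells, Myl9 7 and 2, and Tpm2 8 and 2, all under the 20 UMIs required of a measured gene. Of the 2 measured members, Tpm1, encoding tropomyosin, was higher in luminal-like cells (742 and 246 CPM, 3.01-fold, 2.22 to 4.16) and Des stood at 120 and 134 CPM. Vim, encoding the intermediate filament vimentin, was also higher in luminal-like cells, at 655 and 305 CPM (2.15-fold, 1.63 to 2.88). With classes drawn by Krt8 against Krt14, Tpm1 and Vim were under 2-fold, at log2 ratios of 0.41 and 0.18.

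Of 9 measured transcription and splicing factors of epithelial identity, 3 were at least 2-fold higher in luminal-like and 1 in basal-like cells (median log2 ratio 0.45), against 13.1% and 8.26% of all measured genes. Elf5, a factor of secretory luminal cells, stood at 92.1 CPM against 5.36 CPM from 1 UMI, 17.2-fold (2.98 to 690). Klf4 was 9.56-fold higher (1.61 to 388) and Ehf 3.00-fold (1.31 to 8.48). Tfap2c, encoding AP-2 gamma, stood at 236 CPM in basal-like and 48.3 CPM in luminal-like cells, 4.88-fold (3.04 to 7.91), and had a log2 ratio of -0.76 without Igfbp2 in the basal sum. Elf3, Esrp1, Ovol1, Sox9 and Sox10 differed by less than 2-fold.

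Secreted and luminal progenitor genes had the most luminal-like members by count, though larger shares of the tight junction and Notch genes were called. The median log2 ratio of the 10 measured was 2.29, or 2.13 with 0 UMIs set to 3 counts. Of them 0 were at least 2-fold higher in basal-like cells, against 8.26% of all measured genes. In luminal-like cells 7 were at least 2-fold higher, against 13.1% of all, each with an interval excluding equality. Besides Wfdc18 and Wfdc2 they were Plet1 (5.92-fold, 1.94 to 29.4), Cd14 (7.37-fold, 1.22 to 302), the receptor tyrosine kinase gene Kit (5.87-fold, 1.53 to 50), Slpi, encoding a protease inhibitor (3.39-fold, 1.38 to 10.8), and Ltf, encoding lactoferrin (32.2 CPM against 0 UMIs, at least 2.00-fold higher). With classes drawn by Krt8 against Krt14, Slpi, Kit and Plet1 had log2 ratios of -0.63, -0.024 and 0.11. Lcn2 (483 CPM in luminal-like, 600 CPM in basal-like cells), Mfge8 (320 and 337 CPM) and Trf (158 and 182 CPM), also secreted, were near equal. The milk genes Wap, Csn1s2a, Lalba and Glycam1 had 0 UMIs, and Csn1s1, Csn2 and Csn3 had 3, 1 and 1 UMIs, all in luminal-like cells. Among hormone-sensing genes Esr1, Pgr, Areg and Tnfsf11 had 0 UMIs in both classes. Of the 2 measured, Prom1 was 5.19-fold higher in luminal-like cells with an interval including equality (0.825 to 216), and Stc2 stood at 68.7 and 123 CPM.

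Signalling genes showed Notch receptors on the luminal-like side. Of 5 measured Notch pathway genes 4 were at least 2-fold higher in luminal-like cells, each with an interval excluding equality, and 1 in basal-like cells (median log2 ratio 2.09). Over all measured genes these shares were 13.1% and 8.26%. The receptors Notch3 (130 CPM against 5.36 CPM from 1 UMI, 24.3-fold, 4.25 to 971) and Notch1 (124 and 26.8 CPM, 4.64-fold, 1.91 to 14.7) and the targets Hes1 (2.85-fold, 1.44 to 6.43) and Nrarp (9.01-fold, 1.51 to 367) were the 4. Nrarp had a log2 ratio of 0.78 without Igfbp2 in the basal sum. The ligand gene Jag1 was 2.03-fold higher in basal-like cells with an interval including equality (0.839 to 4.65).

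The 6 measured Wnt pathway genes outside the rule had a median log2 ratio of -0.27, or -0.21 with 0 UMIs set to 3 counts. Of all measured genes 13.1% were at least 2-fold higher in luminal-like and 8.26% in basal-like cells. Among the 6 there was 1 gene in each direction, too few to set the list apart. These were the ligand gene Wnt5b (39.5 CPM against 0 UMIs, at least 2.46-fold higher in luminal-like cells) and the receptor gene Fzd7 (3.36-fold higher in basal-like cells, 1.34 to 8.31, but under 2-fold without Igfbp2 in the basal sum, at a log2 ratio of -0.79). Sfrp1, Lrp5, Lrp6 and Lgr4 differed by less than 2-fold.

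Among the EGF family genes, the receptor gene Erbb2 was higher in luminal-like cells (33.6 and 5.36 CPM, 6.28-fold, 1.02 to 259) and the ligand gene Tgfa in basal-like cells (4.79-fold, 2.19 to 10.7). Tgfa had a log2 ratio of -0.65 without Igfbp2 in the basal sum and of 2.00 with classes drawn by Krt8 against Krt14, where the 19 basal-like cells held 0 Tgfa UMIs. The 5 measured IGF family genes outside the rule had a median log2 ratio of -1.26. Of these, 0 were at least 2-fold higher in luminal-like cells, against 13.1% of all measured genes. In basal-like cells 3 binding proteins were at least 2-fold higher, against 8.26% of all measured genes. They were Igfbp4 (177 and 30.7 CPM, 5.75-fold, 3.23 to 10.5), Igfbp5 (150 and 62.9 CPM, 2.38-fold, 1.43 to 3.93) and Igfbp7 (102 and 8.78 CPM, 11.6-fold, 4.45 to 35.5). Without Igfbp2 in the sum Igfbp4 and Igfbp7 had log2 ratios of -2.32 and -3.05, and Igfbp5 fell to -0.88. The receptor genes Igf1r and Insr differed by less than 2-fold.

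**Figure D5:**
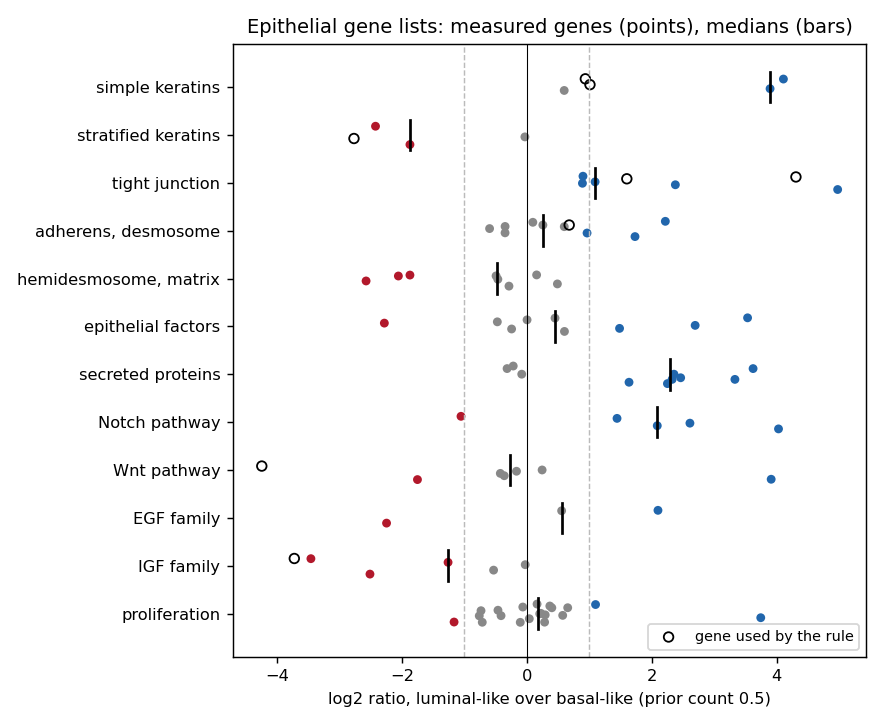
Points are the measured genes of each list at their log2 ratio (luminal-like over basal-like, prior count 0.5), filled blue or red where the plain CPM ratio is at least 2 in that direction, with open circles for genes used by the rule and a bar at the median of the other members. The secreted protein (2.29) and Notch (2.09) medians lie to the right, the IGF family (-1.26) and stratified keratins (-1.87) to the left, and proliferation genes near 0.

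Replication and mitosis genes were detected in both classes as the rule draws them. Summed over 20 replication and mitosis genes, luminal-like cells were at 2770 CPM and basal-like cells at 2694 CPM, against 485 CPM in neurons. Of the 20 genes 2 were at least 2-fold higher in luminal-like cells and 1 in basal-like cells. Neither count was above the shares of all measured genes, 13.1% and 8.26%. The list median of the log2 ratio was 0.18. Birc5, encoding survivin, was 2.20-fold higher in luminal-like cells (1.28 to 4.06) and the replication helicase gene Mcm2 at least 2.18-fold higher. Both were under 2-fold under another epithelial sum, with log2 ratios of 0.75 for Birc5 at a sum of at least 10 and 0.37 for Mcm2 at a sum of at least 3. Plk1, a mitotic kinase gene, was 2.20-fold higher in basal-like cells with an interval including equality (0.848 to 5.36). With classes drawn by Krt8 against Krt14, which leaves 19 basal-like cells, Top2a, Mki67, Cdk1, Ccnb1, Ccnb2, Cdc20 and Plk1 had 0 UMIs in basal-like cells and Ube2c 1, against 151 for Top2a and 261 for Ube2c in luminal-like cells, and the log2 ratio of Plk1 was 1.44. In that split the replication genes Mcm3 and Mcm5 went the other way, at log2 ratios of -1.50 and -0.65. Without Igfbp2 in the basal sum, the 21 basal-like cells held 5 UMIs of Ccnb1, 4 of Birc5, 3 of Mki67 and 2 of Cdk1. They held 1 of Cdc20 and 0 of Ccnb2. Detection of mitosis genes in the basal-like class thus depended on how it was drawn, and rested on few cells and UMIs in both splits. At least 3 UMIs of 10 mitosis genes were found in 33.8% of luminal-like cells (28.3 to 39.6), 20.3% of basal-like cells (11.6 to 31.7) and 0.374% of neurons, without thinning.

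Markers of neurons, astrocytes and immune cells were higher in basal-like cells. The 9 neuron markers summed to 26.3 CPM in luminal-like and 305 CPM in basal-like cells, with 8 of 9 detected and Tac1 at 0, against 19155 CPM in neurons and 3782 CPM in free RNA. The astrocyte list summed to 164 and 412 CPM, almost all from Aldoc and Gja1, with the defining genes Aqp4, Agt and Gfap at 0. The lymphocyte and neutrophil list summed to 55.6 and 171 CPM, nearly all from S100a8 and S100a9, against 1500 CPM in free RNA. Oligodendrocyte genes summed to 33.6 and 37.5 CPM, against 3868 CPM in free RNA. The part of these markers in the differences above was not tested gene by gene. Judged from Snap25, Syt1 and Meg3 alone, free RNA was estimated at 0.626% of luminal-like and 6.88% of basal-like UMIs. Oligodendrocyte genes showed no such difference between the classes, so the estimate depends on the genes chosen. With the free RNA profile subtracted at the shares from the 3 neuronal genes, the log2 ratios were -2.33 for Higd1a, -1.81 for Apoe, -3.81 for Cdkn1c, 3.25 for Wfdc18 and 6.95 for S100a14.

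Clustering the 380 cells without the 8 rule genes gave 2 clusters, of 281 and 99 cells. Cluster 1 held 261 luminal-like, 5 basal-like and 15 equal-sum cells, and cluster 2 held 26 luminal-like, 64 basal-like and 9 equal-sum cells. Of the 356 classed cells 325 (91.3%) were thus in the cluster where their class was the majority. Luminal-like cells alone are 287 of the 356, so an undivided cluster would already hold that many in its majority class. The leading genes of cluster 1 were Barx2 (193 against 18.7 CPM), Wfdc3 (173 against 18.7 CPM) and Anxa1 (578 against 71.1 CPM). Those of cluster 2 were Cdkn1c (456 against 4.52 CPM), Krt14 (378 against 27.1 CPM) and Igfbp2 (2558 against 209 CPM). Krt5 stood at 187 CPM in cluster 2 and 4.52 CPM in cluster 1, whereas Krt8 was at 1477 and 1780 CPM. At a resolution of 1, in place of 0.5, there were 6 clusters, of which 2 (64 and 41 cells) had basal-like majorities.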

How the data were processed

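The deposited matrices hold raw, unscaled UMI counts for each gene in each barcode, which per the submitters' processing notes came from Cell Ranger 2 and mm10. Gene positions are from GENCODE vM21 (GRCm38), which holds 28339 of the 28692 gene identifiers, and the authors' own annotation is not named in these sources. The matrices hold all barcodes, so cells were called here by the limits given above. The members, gene lists and comparisons were chosen with earlier results of these data known, and support nothing by their choice.

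Counts were summed per class and scaled to CPM. Levels carry exact Poisson, ratios exact conditional binomial and shares Clopper-Pearson 95% intervals. Calls used the plain CPM ratio, at least 2, in genes with at least 20 UMIs. Named genes were the 12 furthest in each direction with at least 100 UMIs and at least 2 times the free RNA level, the rule genes, measured list members, the 10 genes furthest above the other cells and 3 leading genes a cluster. Other list members with few UMIs were named after their values were seen. Clusters used 2000 variable genes, 30 components, 15 neighbours and Leiden resolution 0.5. Doublets were called but not removed. The scripts were tested on simulated data. Software was Python 3.11.15, numpy 2.4.6, scipy 1.17.1, pandas 2.3.3, scanpy 1.11.5, leidenalg 0.10.2 and matplotlib 3.10.9. Alternatives covered the cell limits, the rule's sums, the class definition, free RNA, thinning, the gene minimum and the clustering.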

Additional observations from a re-analysis of the deposited data

How the results depend on the processing

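No paired analysis was possible because each group has 1 library. The epithelial share of called cells, 7.85%, was 6.44% with cells of at least 500 UMIs, 5.64% with an epithelial sum of at least 10 and 9.05% with at least 3. The basal-like share of classed cells, 19.4%, was 11.4% and 27% under those last sums, 15.4% where one sum had to be 3 times the other, 5.38% by Krt8 against Krt14, 5.79% without Igfbp2 in the basal sum and 26.1% by cluster. The last 2 were chosen after seeing the data, as was the prior count below. Genes at least 2-fold higher in luminal-like cells, 543, numbered 337 with cells of at least 2000 UMIs, 918 by Krt8 against Krt14, 838 without Igfbp2, 288 after thinning, 57 with at least 100 UMIs per gene and 3781 with at least 1. For basal-like cells the 341 became 158, 38 and 2470 under the last 3. A prior count of 0.5 gave 479 and 372. Of the 543 and 341 genes, 350 and 161 kept their call without Igfbp2, and 339 and 234 by cluster. Clusters numbered 6 at resolution 1.

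Over 129 genes and 15 settings each (1935 values), 15 values had the other sign. By Krt8 against Krt14 these log2 ratios were 0.70 for 2610528A11Rik, 0.39 for Bnip3, -0.10 for Ctnnd1, 1.13 for Ero1l, -0.41 for F11r, 0.92 for Higd1a, 0.60 for Ier3, -0.024 for Kit, 1.44 for Plk1, -0.63 for Slpi, 2.00 for Tgfa and -0.62 for Tjp1. Without Igfbp2 they were 1.38 for Ero1l and 0.39 for Higd1a, and Ctnnd1 had -0.18 after thinning. The splits by Krt8 against Krt14 and without Igfbp2 keep 19 and 21 basal-like cells. Both count many former basal-like cells as luminal-like, so their ratios compare other sets of cells. Of 74 genes past 2-fold, 33 fell under it in at least 1 setting, and the cause was not tested. Intervals cover counting error of 69 basal-like cells in 1 library, so genes with few UMIs there are imprecise.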

Other observations

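Aqp5, a water channel gene of exocrine glands, was the only measured member of 16 genes listed for other glands, and stood at 182 CPM in basal-like and 61.4 CPM in luminal-like cells (2.96-fold, 1.83 to 4.77). Its log2 ratio (luminal-like over basal-like) was -0.36 without Igfbp2 in the basal sum. Ndrg1 stood at 1395 CPM in cluster 2 and 434 CPM in cluster 1, and was chosen after its values were seen.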
